A study of Mus musculus with 3 samples.

Results

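A passage 14 culture of lymphatic endothelial cells, immortalized and derived from mouse skin, was compared gene by gene with the cultures taken at passages 13 and 18. The value compared was the log2 signal intensity at passage 14 minus the mean log2 intensity of passages 13 and 18, so that 1 unit is a 2-fold difference. Each gene was represented by the probe set with its highest mean log2 intensity, and a gene entered the comparison where its intensity exceeded 36 on at least 1 of the 3 arrays. Of 18194 genes measured, 10925 (60%) were kept, and 9732 of them were above 36 on all 3 arrays. At that bound, 253 of the kept genes reached a highest intensity of no more than 40, and 267 genes left out reached between 32 and 36. An intensity under 36 was read only as an upper limit, and a fold with such a value on one side is given as "at least". A dim gene that was kept through the array where it is high had to differ.

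The cells were sorted from the skin of H-2Kb-tsA58 mice (ImmortoMice), whose cells carry the temperature-sensitive tsA58 large T antigen of SV40 behind the interferon-inducible H-2Kb promoter. All 3 cultures carried this transgene, were grown on collagen and fibronectin at 33 °C with 1 unit/ml interferon-gamma, and were held for 3 days at 37 °C without interferon-gamma before RNA was taken in parallel. Passage number is the only difference the labels give. They do not say whether the cultures are 1 line in series or separate isolations, so passage and lineage cannot be told apart. Each passage is represented by 1 culture on 1 array. No replicate spread exists on the passage 14 side, so every result here is a difference between arrays with no test, and precision is limited by having 3 arrays. Both differences share the passage 14 array.

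Large T antigen binds and inactivates p53 and the retinoblastoma proteins, which releases the E2F factors and keeps cells dividing, and the tsA58 form loses its stability when the temperature is raised. Lymphatic endothelial cells line the vessels that drain tissue fluid, and in skin they are known by Prox1, podoplanin (Pdpn), Lyve1 and the VEGF-C receptor Flt4. In culture, endothelial cells can lose such markers and gain contractile and matrix genes.

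The passage 14 culture differed from passage 18 more than from passage 13. Across the genes kept, the standard deviation of the log2 difference over genes was 0.59 against passage 13, 0.82 against passage 18, and 0.54 between passages 18 and 13. At passage 14, 426 genes were at least 2-fold higher than the mean of the other cultures (3.9%) and 655 were at least 2-fold lower (6%). A stricter count asked for a 2-fold distance from each of the other arrays. By it, 263 genes (2.41%) lay above both passages 13 and 18, and 373 genes (3.41%) lay below both. With values under 36 raised to 36 these counts were 221 and 252. In the lists, higher or lower with no fold named is against the mean of passages 13 and 18, and calls of single lists that end on this change are named where they occur. Passages 13 and 18 themselves were at least 2-fold apart for 739 genes (6.76%). Among the genes above both, passages 13 and 18 lay within 2-fold of each other for 212 of 263, and for 275 of 373 among the genes below both. The median difference over all genes was -0.02, with quartiles at -0.34 and 0.28, and the 4 shares above are the background for every list below.

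**Figure D1:**
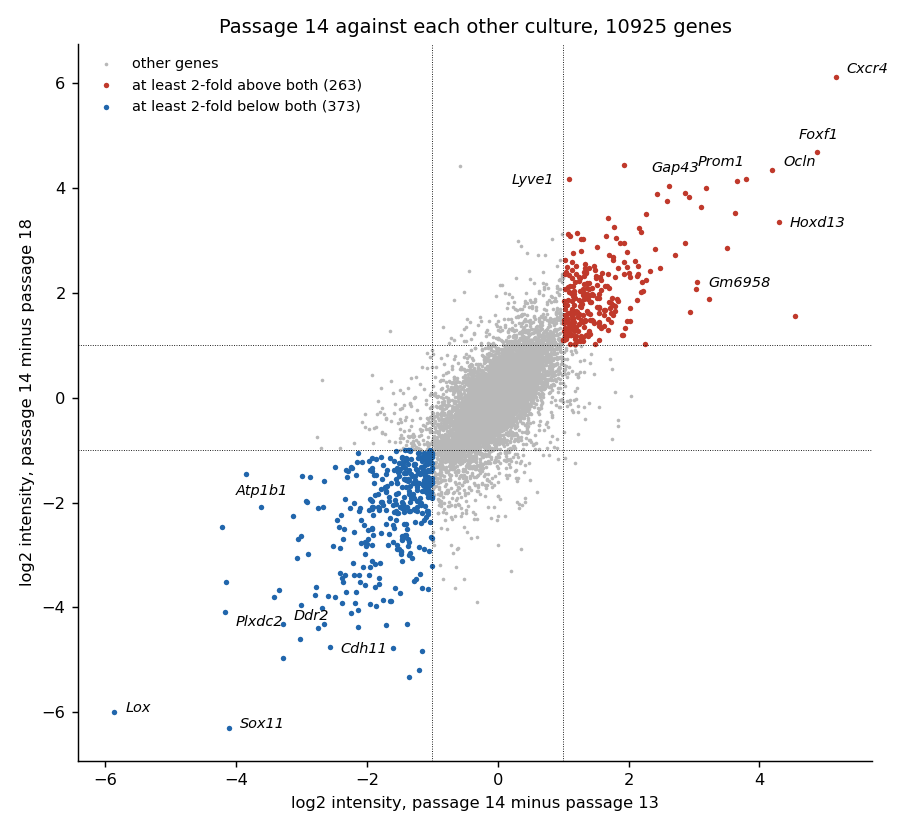
Log2 intensity difference of passage 14 from passage 13 (horizontal) and from passage 18 (vertical) for each of the 10925 genes kept, with dotted lines at a 2-fold difference. The 263 red genes lie at least 2-fold above both other arrays and the 373 blue genes at least 2-fold below both. The passage 14 array enters both axes, so the slope of the cloud is partly built in.

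Dim genes gave more of these calls than bright ones. Of genes with a mean log2 intensity under 6, 5.36% lay above both and 6.8% below both, and of genes over 10, 0.332% and 1.5%. A separate probe set, where one above 36 existed, gave a second reading of the same arrays. All 105 genes above both that had one differed in the same direction by it, 78 of them again at least 2-fold from both arrays. Likewise all 146 genes below both kept their direction and 95 of them their distance, while over all kept genes with a second probe set the directions were alike for 4100 of 5274.

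Array medians were alike, while the 3'/5' control ratios set passage 18 apart. The median over all probe sets was 25.7, 26 and 26.3 intensity units in the order of passage. For Gapdh, the 3' probe set divided by the 5' probe set gave 8.59, 7.1 and 19.4, for Actb 1.18, 1.2 and 1.42 and for Tfrc 0.467, 0.468 and 0.624. Passage 18 had the highest ratio in all 3 controls, and passages 13 and 14 were closer to each other than to it. The part of this difference in the comparisons with passage 18 was not tested, so the difference from passage 13 alone is given beside the main groups.

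The labelled cell type was read from its markers. Intensities are given from here on in the order passage 13, 14 and 18. Pdpn, the surface glycoprotein podoplanin, was at 4615, 1933 and 3715, and Flt4 was at 2039, 1869 and 919.7. The general endothelial genes Cdh5, which encodes VE-cadherin, and Pecam1 were at 1705, 2018 and 1301 and at 1728, 1963 and 1005. Prox1, the transcription factor that sets lymphatic identity, was dim at 73.4, 34.5 and 48.5, under 36 at passage 14 only. Of the 18 leukocyte markers measured, 13 were under 36 on all arrays, with Ptprc at 11.5, 9.77 and 10.2. Of 15 epithelial markers 7 were, with Epcam at 14.7, 14.8 and 13.5 and Krt14 at 13.6, 16.2 and 19.2. The other 8 epithelial markers were over 36 on at least 1 array, among them the simple-epithelial keratin Krt19 at 974, 387 and 644, Krt8 at 32.2, 24.4 and 61.9 and Krt18 at 231, 211 and 374. On each array the general endothelial genes were bright, and Ptprc, Epcam and Krt14 were under 36.

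Cxcr4, Prom1, Foxf1 and Lox each set the passage 14 culture apart from both others. Cxcr4, the receptor of the chemokine Cxcl12, was at 16.6, 596 and 8.58, which is at least 16.6-fold above both. Prom1, the cell surface protein prominin-1 that is used as a progenitor marker under the name CD133, was at 249.5, 3158 and 180, or 12.7-fold above passage 13 and 17.5-fold above passage 18. Foxf1, a forkhead transcription factor of lung and gut mesenchyme and of developing endothelium, was at 9.57, 280.5 and 10.9, or at least 7.79-fold above both. All 3 were thus highest on the passage 14 array by far. Prom1 was over 36 on every array, while for Cxcr4 and Foxf1 the other arrays gave only upper limits. A second Foxf1 probe set was at 21.7, 44.3 and 17.1, over 36 at passage 14 only. Its log2 difference of 1.20 thus rests on values that are upper limits.

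Lox, the lysyl oxidase that crosslinks collagen and elastin, showed the reverse pattern at 574, 9.88 and 632. It was at least 15.96-fold below passage 13 and at least 17.6-fold below passage 18. A second Lox probe set gave a log2 difference of -6.13. The noncoding RNA gene Gm41724, 2 genes from Lox on the chromosome, differed by -3.84, while the protein-coding gene next to Lox on its other side, Srfbp1, differed by 0.08. Lox was therefore near the bottom of the array's range at passage 14 by both probe sets, and bright in the other cultures. These 4 genes were chosen with these values known, so their differences describe the culture and support nothing.

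Beyond Prom1, the genes highest above both arrays and over 36 everywhere were led by Gap43, the growth-associated protein of axons. Gap43 was at 280.1, 1718 and 106, 6.13-fold above passage 13 and 16.2-fold above passage 18. Bcl2l15, of the Bcl-2 family, was at 77.4, 347 and 36.8, and Bex1 at 160.4, 730.1 and 82.5. Lyve1, the hyaluronan receptor of lymphatic vessels, was at 1375, 2929 and 163. Lyve1 thus lay 2.13-fold above passage 13 and 17.98-fold above passage 18, so the larger distance was from passage 18. Prdm8, a histone methyltransferase family member, was at 67.3, 338 and 63.2, and Nptx1, a neuronal pentraxin, at 628, 2470 and 442, each with passages 13 and 18 within 2-fold of each other. Inpp4b, a phosphoinositide phosphatase, was at 91.5, 399 and 80.3, and the small GTPase gene Gimap4 at 267, 866 and 131. Passage 13 was the second highest array in all 15 of these leading genes but Gm6958.

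Some genes were bright at passage 14 and under 36 on at least 1 other array. Ocln, the tight junction protein occludin, was at 12.6, 230.4 and 11.3, or at least 6.4-fold above both. Mfng, a glycosyltransferase that modifies Notch receptors, was at 36.6, 334 and 20.9, or 9.12-fold above passage 13 and at least 9.27-fold above passage 18. Pf4, the chemokine platelet factor 4, was at 35.6, 234 and 35.5, just under the bound on the other arrays. St8sia4, which builds polysialic acid, was at 186, 710.5 and 32.8, and Hoxd13, a homeobox factor of the distal limb, at 8.89, 175 and 17.2. At passage 13 these genes were under or close to 36 except St8sia4, which was already bright there.

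The lowest gene with all arrays above 36 was Plxdc2, a plexin-domain transmembrane protein, at 1455, 80.7 and 1372. It was 18.02-fold below passage 13 and 16.99-fold below passage 18, and 3 probe sets gave log2 differences from -4.13 to -3.87. Cdh11, the cadherin of mesenchymal cells, was at 664, 112 and 3023, and Acta2, smooth muscle actin, at 1467, 308 and 5289. In both, passage 18 was the highest array by far, and a second Acta2 probe set differed by only -0.56. Serpinb9b, a protease inhibitor, was at 2554, 341 and 2706 and Igfbp7, a secreted insulin-like growth factor binding protein, at 3548, 616 and 4358. For these the other cultures were alike and passage 14 stood alone. Atp1b1, the beta subunit of the sodium pump, was at 4435, 362 and 1542 and Ereg, the growth factor epiregulin, at 917, 105 and 498, so passage 13 was the highest array in both.

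Under 36 at passage 14 were also Sox11, a developmental transcription factor, at 107, 6.15 and 485, the collagen receptor Ddr2 at 166, 17.1 and 340, and the retinaldehyde dehydrogenase Aldh1a1 at 158, 35.99 and 743. Aldh1a7, its close relative, was at 253, 77.1 and 1553, and since these paralogs are alike in sequence the probe sets may share signal. Medag was at 176, 18.1 and 563 and the activin subunit gene Inhbb at 131, 30.2 and 316. Each of these was lower at passage 14 than at passage 13 and highest at passage 18. Of the 46 genes named as leading in either direction, 22 had at least 2 probe sets above 36 on at least 1 array. In all 22 these had 1 direction against the mean of passages 13 and 18, which need not hold against each array. The second Acta2 probe set, at 19.7, 22.2 and 54.3, was lowest at passage 13.

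**Figure D2:**
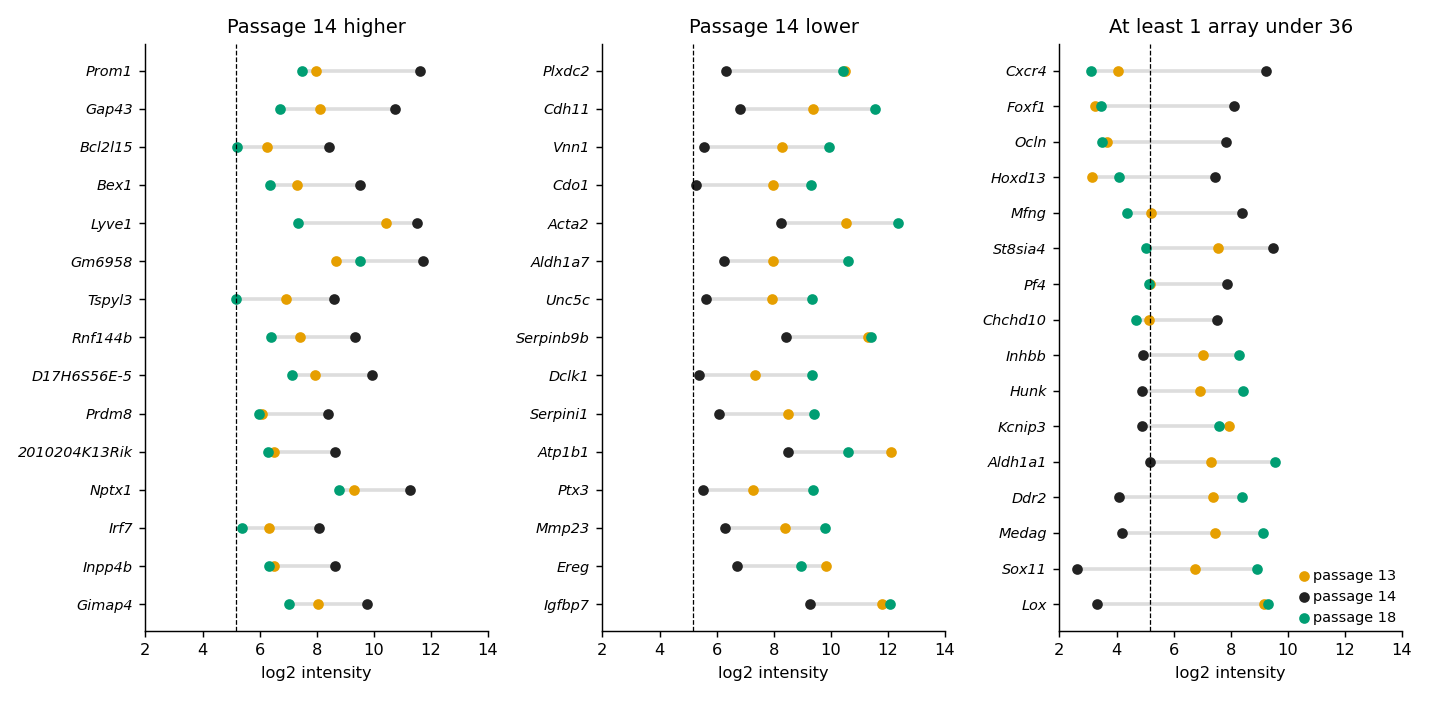
Log2 intensity at passages 13, 14 and 18 (1 array each) for the 15 genes highest above both other arrays, the 15 lowest below both, and 16 genes with at least 1 array under an intensity of 36, which the dashed line marks. The black passage 14 points lie outside the other points in every row, from Cxcr4 at the top of the last panel to Lox at its foot.

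Of the gene lists run, mitosis and G2/M had the most genes above both arrays. Mitosis runs on cyclins A and B with their kinase, on kinesin motors that build the spindle and on the kinetochore complexes that hold chromosomes, and the genes for these are switched on together before division. Of 54 mitosis and G2/M genes kept, 35 lay at least 2-fold above both arrays, against 2.41% of all genes, and 0 lay below both. The median log2 difference was 1.41, with 1.24 against passage 13 and 1.60 against passage 18, and 53 of the genes were higher than the mean of the other arrays. In bulk RNA, more or fewer cells of a kind and more or less RNA per cell cannot be told apart. This list and the others were drawn up with earlier results of these arrays known.

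Ccnb2, the mitotic cyclin B2, was the highest of the list at 319.9, 1085 and 177, or 3.39-fold above passage 13 and 6.14-fold above passage 18. Cyclin A2, Ccna2, was at 724, 2255 and 519, or 3.12-fold above passage 13 and 4.35-fold above passage 18. The kinesin Kif2c, which trims microtubule ends at kinetochores, was at 158, 530.5 and 142, and Kif23, a kinesin of the midzone that cytokinesis needs, at 307, 804 and 176. All of these were highest at passage 14 and lowest at passage 18. Mki67, the proliferation antigen Ki-67, was at 219, 652 and 158, or 2.98-fold above passage 13 and 4.13-fold above passage 18. Spc24, a subunit of the Ndc80 kinetochore complex, was at 115, 287 and 57.3, yet its partner Spc25 was the least different of the list at 784, 756 and 845. Ube2c, the conjugating enzyme of the anaphase-promoting complex, was at 1383, 3277 and 667 and the phosphatase Cdc25c at 108, 372 and 111. At the low end with Spc25 were Cks1b at 3687, 4750 and 4295, Aspm at 218, 428 and 444 and the securin gene Pttg1 at 2613, 3604 and 2610.

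The promoters of mitosis genes are known for 2 short elements, the cell cycle homology region (CHR), which the DREAM and MuvB complexes bind, and the CCAAT box bound by NF-Y. Promoter windows from 250 bases before to 50 after the start site were taken from RefSeq on GRCm38.p6, and 44 of the 54 genes matched, with 46 promoters. The CHR was searched as TTTGAA or TTCGAA on both strands (TTCGAA reads alike on both), and the letters were present in 37 of the 46 windows (80.4%), against 19.2% of all 32851 windows and 13.4% of those of the genes kept. CCAAT, on either strand, was present in 76.1%, against 37.4% and 37.8%. The CHR share was 83.9% for the mitosis genes above both arrays and 73.3% for those that were not. In the genes above both arrays the CHR letters were present in 27.4% of windows, and in 19% once the 4 cell cycle lists were set aside. The latter share is above the 13.4% of the genes kept but near the 19.2% of all windows. A match says only that the letters are there. The 4 windows below belong to the genes of the list with the largest differences among those matched, and are written 5' to 3' on the gene's strand with CHR and CCAAT letters of either orientation in capitals.
Ccnb2: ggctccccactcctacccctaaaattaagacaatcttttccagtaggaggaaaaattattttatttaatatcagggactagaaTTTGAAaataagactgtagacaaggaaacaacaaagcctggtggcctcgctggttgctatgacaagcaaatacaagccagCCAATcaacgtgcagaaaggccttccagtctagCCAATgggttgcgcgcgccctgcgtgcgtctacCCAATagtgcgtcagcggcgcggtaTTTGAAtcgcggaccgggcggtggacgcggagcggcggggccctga
Kif2c: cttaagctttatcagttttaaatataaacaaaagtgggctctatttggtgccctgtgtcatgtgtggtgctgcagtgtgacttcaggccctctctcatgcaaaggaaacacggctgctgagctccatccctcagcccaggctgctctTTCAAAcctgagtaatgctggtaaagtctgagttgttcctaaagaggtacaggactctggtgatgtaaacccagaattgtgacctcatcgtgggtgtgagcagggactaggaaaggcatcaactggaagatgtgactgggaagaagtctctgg
Mki67: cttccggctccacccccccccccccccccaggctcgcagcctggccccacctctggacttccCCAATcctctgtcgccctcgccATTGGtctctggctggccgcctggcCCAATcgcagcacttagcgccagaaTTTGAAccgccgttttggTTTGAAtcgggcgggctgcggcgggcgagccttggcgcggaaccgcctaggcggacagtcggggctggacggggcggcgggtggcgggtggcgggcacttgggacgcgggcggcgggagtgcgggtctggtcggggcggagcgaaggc
Kif23: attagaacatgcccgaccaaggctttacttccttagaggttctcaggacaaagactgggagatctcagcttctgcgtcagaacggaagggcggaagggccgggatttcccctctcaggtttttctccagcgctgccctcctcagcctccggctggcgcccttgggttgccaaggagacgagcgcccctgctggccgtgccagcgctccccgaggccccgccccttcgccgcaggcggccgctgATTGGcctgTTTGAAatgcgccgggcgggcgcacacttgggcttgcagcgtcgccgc
These lie at chr9:70421505-70421804, minus strand (Ccnb2), chr4:117178723-117179022, minus strand (Kif2c), chr7:135716330-135716629, minus strand (Mki67) and chr9:61946750-61947049, minus strand (Kif23) on GRCm38.p6. The Ccnb2 and Mki67 windows each hold 2 CHR matches and 3 CCAAT boxes, that of Kif23 holds 1 of each, and that of Kif2c holds 1 CHR match and 0 CCAAT boxes.

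The steps before mitosis differed less. The G1/S and DNA replication list, which holds cyclin E, the MCM helicase and the enzymes of nucleotide supply, had 41 of 47 genes higher at passage 14 but only 3 above both by 2-fold. Its median log2 difference was 0.47, with 0.49 against passage 13 and 0.57 against passage 18. The 3 genes were the thymidine kinase Tk1 at 132, 377 and 51.4, the replication initiation factor Mcm10 at 125, 275 and 77.3 and Gins1, a subunit of the replicative helicase, at 237, 503 and 204. Of the 6 core helicase subunits, Mcm2, Mcm3, Mcm5 and Mcm7 were higher, by log2 differences from 0.30 (Mcm2) to 0.56 (Mcm3); these 4 were picked out after their values were seen. Mcm6 was nearly level at 2989, 3029 and 3179, Mcm4 was at 1071, 1090 and 1601, highest at passage 18, and the cyclin E gene Ccne1 was lowest in the list at 282, 225 and 264. The size of the difference was therefore unequal within the cell cycle, with the mitosis median above that of replication on each of the comparisons.

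The replication list's promoters differed from those of the mitosis list in E2F and CHR letters, but they also often held the CCAAT box. CCAAT was present in 60.5% of the replication windows, against 37.4% of all windows and 37.8% of those of the genes kept. The E2F site, searched as TTTGGCGC, TTTCGCGC, TTTCCCGC or TTTGCCGC on both strands, was present in 17 of 43 windows (39.5%), against 2.26% of all windows, 3.99% of those of the genes kept and 2.17% of mitosis windows, while the CHR letters were present in 18.6%. Cdc6, which loads the helicase on origins, was at 175, 277 and 121, and its window (chr11:98907901-98908200, plus strand, GRCm38.p6) is shown because it holds an E2F match, in capitals.
Cdc6: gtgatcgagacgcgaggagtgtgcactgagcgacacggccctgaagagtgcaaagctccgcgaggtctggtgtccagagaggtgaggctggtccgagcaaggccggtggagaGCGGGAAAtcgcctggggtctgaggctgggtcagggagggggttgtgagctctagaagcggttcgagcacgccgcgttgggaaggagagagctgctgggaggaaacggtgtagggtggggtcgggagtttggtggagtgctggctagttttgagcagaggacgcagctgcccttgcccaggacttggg

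The S phase chromatin and fork repair lists lay between these groups by their medians. All 21 genes of the S phase chromatin list were higher at passage 14 than the mean of the others, 6 of them above both by 2-fold, with a median of 0.72 (0.69 against passage 13). They were led by the histone chaperone Nasp at 424, 1238 and 381 and by Uhrf1, which recruits the maintenance DNA methyltransferase, at 134, 323 and 116. The list also holds the condensin subunits Smc2, Smc4, Ncapd2, Ncapg, Ncapg2 and Ncaph, which act on mitotic chromosomes. Of these subunits, Ncaph and Ncapg were at 84.4, 198 and 81.8 and at 539, 1181 and 464. Ezh2, the Polycomb methyltransferase, was least different in the list at 522, 588 and 606. Of 19 fork repair genes, 4 were above both, with a median of 0.66. They included the exonuclease Exo1 at 43.6, 141 and 27.4 and the checkpoint kinase Chek1 at 162, 366 and 182. The mismatch repair gene Msh6 was the single lower one at 1730, 1399 and 2464.

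Genes that act on the cycle from above differed less, or the other way. Of 25 Myc and ribosome biogenesis genes, 21 were higher at passage 14 and 0 were above both by 2-fold, with a median of 0.41. Myc itself was at 924, 1370 and 614 and the nucleolar methyltransferase Fbl at 1035, 1995 and 676, whereas Mycn was lower at 167, 84.2 and 499. The list of cyclin-dependent kinase inhibitor and Rb family genes also held Cdk4, Cdk6, the D cyclins Ccnd2 and Ccnd3, E2f5 and Ccng2. Of its 15 genes 0 were called in either direction, and the median was -0.32. Passage 14 was the lowest array for 11 of the 15, against 38.9% of all genes kept. Higher than the mean of the others were 4, by log2 differences of 0.46 (Cdk4), 0.45 (the inhibitor Cdkn2a), 0.34 (the inhibitor Cdkn2d) and 0.14 (Rbl1). The inhibitor p21, Cdkn1a, was at 2585, 2452 and 3027, Rb1 at 124, 80.3 and 198 and Rbl2 at 189.8, 115 and 284. Of 25 p53 target genes, 22 were lower and 3 below both by 2-fold, with a median of -0.26. These 3 were the death receptor Fas at 279, 107 and 699, the desmosomal protein gene Perp at 764, 161 and 403 and Pmaip1, which encodes Noxa, at 909, 435 and 1280, all with passage 14 as the lowest array.

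**Figure D3:**
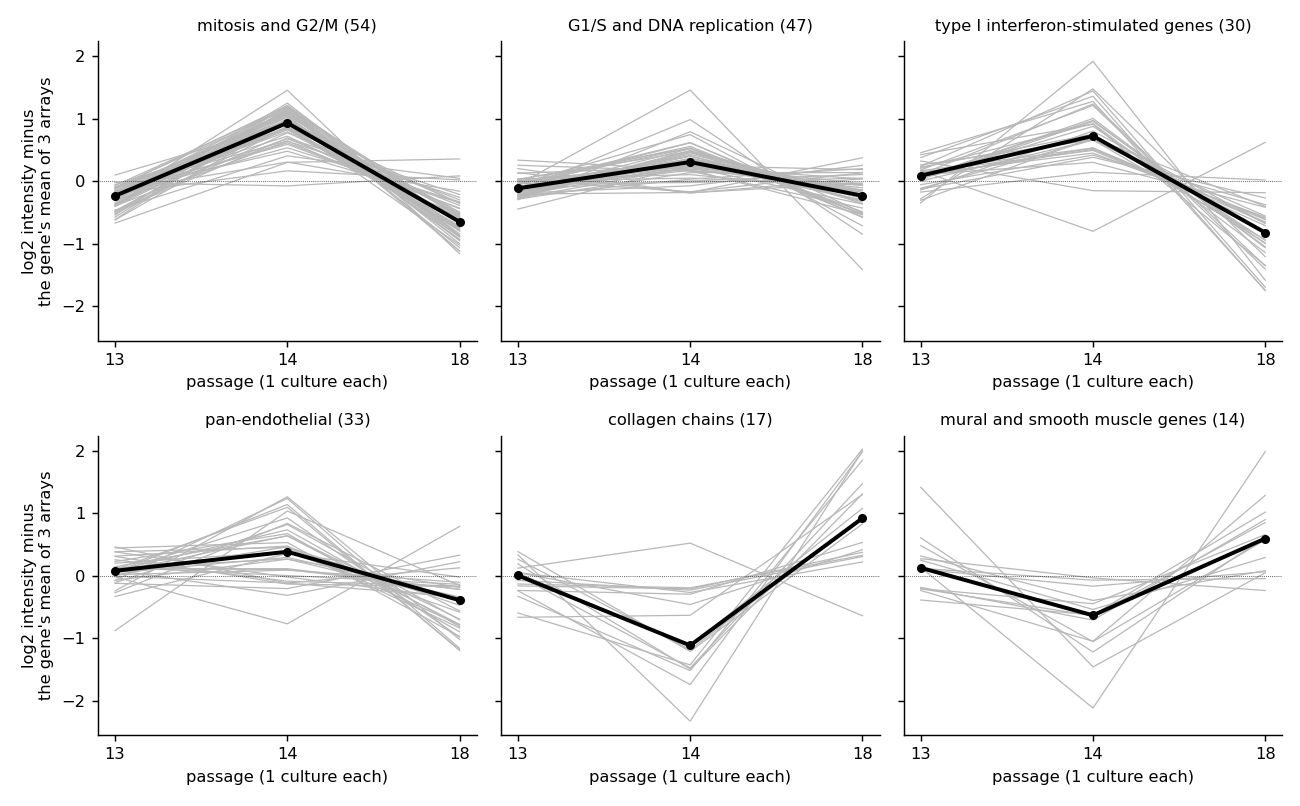
Log2 intensity at passages 13, 14 and 18 minus each gene's mean over the 3 arrays, for 6 gene lists (1 array per passage, number of genes in each title). Grey lines are genes and the black line joins their medians. The mitosis genes peak together at passage 14. The medians of interferon-stimulated and pan-endothelial genes peak there and are lowest at passage 18, and those of collagens and mural genes are lowest at passage 14. Of the 33 pan-endothelial genes, 23 are highest at passage 14.

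Interferon-stimulated genes were also higher at passage 14, though in a different shape. Type I interferons are cytokines that switch on antiviral genes. Of 30 such genes, 28 were higher than the mean of the others, 6 were above both by 2-fold (5 with values raised to 36) and 0 below both. The median of 1.09 split into 0.68 against passage 13 and 1.54 against passage 18, so the list ran from passage 14 through 13 down to 18. Irf7, the factor that amplifies the response, was at 79.9, 270.4 and 42.1, or 3.38-fold above passage 13 and 6.43-fold above passage 18. The oligoadenylate synthetase Oas3 was at 170.2, 393 and 44.5, its catalytically inactive relative Oasl1 at 22.7, 109 and 9.62 and Rsad2, the antiviral enzyme viperin, at 965, 1906 and 221. Ifi27 ran the other way at 516, 264 and 707, lowest at passage 14.

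Genes of the interferon-gamma response, the cytokine withdrawn before RNA was taken, were near level as a list. Of 25 genes, 1 lay above both and 1 below both, with a median of -0.05. Irf8 was above at 58.6, 129 and 26.5, and the class II gene H2-Eb1 was below at 71.6, 18.9 and 80.7, a call that ends with values raised to 36. The GTPase gene Iigp1, at 636, 1226 and 199, was highest at passage 14 but within 2-fold of passage 13. The core of the interferon-stimulated response element, searched as GAAA, any 2 bases and GAAA again and chosen after these arrays had been examined, was present on either strand in 11 of 26 windows of the type I list (42.3%), against 3.44% of all windows and 2.86% of those of the genes kept. The windows of Oas3 (chr5:120777610-120777909, minus strand) and Rsad2 (chr12:26456403-26456702, minus strand, both GRCm38.p6) are shown because they hold it, in capitals.
Oas3: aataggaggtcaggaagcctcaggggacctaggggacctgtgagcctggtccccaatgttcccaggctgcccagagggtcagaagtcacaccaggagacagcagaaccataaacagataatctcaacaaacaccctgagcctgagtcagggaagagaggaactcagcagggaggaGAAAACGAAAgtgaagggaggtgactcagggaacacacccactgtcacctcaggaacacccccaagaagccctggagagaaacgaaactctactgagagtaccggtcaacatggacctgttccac
Rsad2: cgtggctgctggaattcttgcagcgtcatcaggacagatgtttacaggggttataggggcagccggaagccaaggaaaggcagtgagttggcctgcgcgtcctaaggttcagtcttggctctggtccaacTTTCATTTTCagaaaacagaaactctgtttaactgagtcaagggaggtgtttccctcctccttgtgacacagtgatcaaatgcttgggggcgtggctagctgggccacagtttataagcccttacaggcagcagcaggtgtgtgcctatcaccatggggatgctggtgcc

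Endothelial genes were split by kind. Of 33 pan-endothelial genes, 25 were higher at passage 14, 5 were above both by 2-fold and 0 below both. Their median was 0.57, of which most was distance from passage 18: it was 0.94 against passage 18 and 0.18 against passage 13. The ETS factor Fli1 was at 331, 939 and 193, the tight junction claudin Cldn5 at 82.6, 205 and 38.9, the surface lectin-like receptor Cd93 at 1872, 3963 and 787 and Cd34 at 504, 1899 and 832. Kdr, the main VEGF-A receptor, was at 767, 1655 and 627, or 2.16-fold above passage 13 and 2.64-fold above passage 18. Tek, the angiopoietin receptor, was at 720, 530.1 and 515 and the ETS factor Erg at 2458, 1859 and 1472, neither highest at passage 14. Vwf, von Willebrand factor, was under 36 on all arrays at 17.3, 14.1 and 17.3.

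Lymphatic genes took both directions. Of 16 kept of 21 measured, 2 lay above both, 2 below both, and the median was -0.33. Above were Lyve1 and Sox18, the factor that induces Prox1, at 599, 1236 and 235. Below were Foxc2, which patterns lymphatic valves, at 783, 267 and 955, and the transcription factor Maf at 167, 65.7 and 511. Pdpn was lowest at passage 14, though within 2-fold of passage 18. Flt4 lay close to passage 13. Vegfc was at 365, 229 and 396, and of the VEGF ligand and receptor list 2 of 10 genes lay above both, Kdr and Flt1, with Flt1 at 109, 230.1 and 81.4.

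Tip cell and vessel-type genes were also mixed. Of 19 tip cell genes 4 lay above both: Cxcr4, the Tie2 ligand Angpt2 at 436, 1163 and 301, the adrenomedullin co-receptor Ramp3 at 41.6, 104 and 18.9 and the ligand Pdgfb at 39.5, 84.5 and 10.1. The tip cell gene Esm1 was lower at 407, 119.5 and 191, and Mcam, the adhesion molecule CD146, was below both at 557, 110.5 and 421. The arterial, venous and capillary list had 8 of 12 genes lower and a median of -0.76, with 2 below both that are not called with values raised to 36. Its genes included Nrp1 at 1142, 664 and 2348 and Cxcl12, the ligand of Cxcr4, at 923, 632 and 2018, both highest at passage 18. Of 12 progenitor surface genes, Prom1 and Cd34 lay above both and Mcam below, while Kit was under 36 throughout at 8.44, 20.9 and 5.81.

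Signalling lists of the endothelium gave 1 to 3 calls each. The Notch list had 2 of 17 above both, Mfng and the receptor Notch4 at 77.97, 201 and 53.01, and 1 below, the target Hey2 at 34.7, 12.2 and 90.1, under 36 at passages 13 and 14 and lost with values raised to 36, with a median of -0.21. Angpt2 was the 1 gene above both among 7 of the angiopoietin and Tie list. Ephrins and Eph receptors had 1 of 12 below both (0 with values raised) and a median of -0.63. Among 23 guidance genes, Slit2 was above at 343, 763 and 288, while Unc5c, a netrin receptor, was below at 246, 49.4 and 643, as was Robo1 at 42.6, 5.09 and 42.6, though not with values raised to 36. The adrenomedullin, endothelin, apelin and natriuretic list, with Ramp3 above and the receptor Npr2 below at 329, 149 and 391, had a median of 0.33 that turned to -0.12 against passage 13 alone.

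Adhesion and flow genes were similar. The junction list had 2 above both, Ocln and Cldn5, and 2 below, Cdh11 and the connexin Gjb5 at 55.3, 18.6 and 231 (lost with values raised), of 24. Among 12 integrins and 12 leukocyte adhesion genes 0 were called, with the integrin median at -0.03. Nos3, the endothelial nitric oxide synthase, was the single call of the 13 Krüppel-like and flow genes at 65.8, 159.6 and 23.1, or 2.42-fold above passage 13 and at least 4.43-fold above passage 18, next to Klf2, a flow-responsive factor, at 139.8, 183 and 138. Hyaluronan genes had Lyve1 and Hmmr above and Cemip, a hyaluronan-degrading protein, below at 29.5, 11.5 and 459, under 36 at passages 13 and 14 and lost with values raised. The mitotic spindle also uses Hmmr, which was at 63.3, 159 and 57.7.

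Of the gene lists run, the matricellular and collagen lists had the most genes below both arrays. Fibrillar collagens are secreted as trimers, trimmed and hydroxylated on the way, and crosslinked outside the cell by lysyl oxidases. Of 17 collagen chain genes, 8 lay at least 2-fold below both arrays (7 with values raised), against 3.41% of all genes, 0 lay above both, and 16 were lower than the mean of the others. The median was -1.67, with -0.83 against passage 13 and -2.04 against passage 18. Raising intensities under 36 to 36 brought it to -0.95, so its size rests in part on dim values. Col1a1 and Col1a2, the chains of type I collagen, were at 263, 92.8 and 1228 and at 101, 15.9 and 318. Col5a2 and Col6a1 were at 693, 216 and 1504 and at 122, 53.5 and 552. In each the order was passage 14, 13, 18 from low to high. Basement membrane Col4a1 was nearly level at 5049, 4531 and 6574, and Col18a1, the source of endostatin, was the single higher chain at 438, 578 and 258.

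Around the collagens, the processing enzymes were less uniform. Of 17 lysyl oxidase and processing genes 2 lay below both, Lox and the lysyl hydroxylase Plod2 at 610.5, 272 and 632, and the median was -0.40. The collagen chaperone Serpinh1 was level at 3371, 3177 and 2702, and Pcolce, which enhances procollagen trimming, was higher than at passage 13 but not than at passage 18, at 459, 1068 and 1736. The fibronectin, elastic fibre and matricellular list had 9 of 19 below both and a median of -1.14, or 7 and -0.76 with values under 36 raised. Fibronectin, Fn1, was at 2799, 1327 and 4128, the proteoglycans Bgn and Vcan at 3990, 1058 and 4969 and at 374, 124 and 700.1, and the elastic fibre protein Fbln5 at 301, 109 and 952. Sparc was level at 8620, 7846 and 8938, and Ccn3 was higher at 300.2, 592 and 129.5 within 2-fold of passage 13.

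Basement membrane and protease genes leaned the same way with smaller medians than the collagens. Of 15 basement membrane genes 2 lay below both (1 with values raised), with a median of -0.52, among them perlecan, Hspg2, at 103, 49.1 and 139.6, while the laminin Lama4 was higher at 202, 367 and 203. Of 21 metalloproteinase and inhibitor genes 2 lay below both, Mmp23 at 338, 78.2 and 889 and the aggrecanase Adamts5 at 1418, 539 and 3059.

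Mesenchymal, contractile and fibroblast markers were lower with the collagens. All 14 fibroblast markers kept were lower than the mean of the others, 9 were lowest at passage 14 and 7 lay 2-fold below both, with a median of -1.69 (5 and -0.75 with values under 36 raised) and -0.99 against passage 13. This list is not separate from those above, since 6 of the 14 are collagens already counted and Dcn and Postn are in the matricellular list. The 6 in neither had a median of -0.47 and 1 call below both. Of those defining fibroblasts, Lum was under 36 on all arrays at 5.11, 5.14 and 5.91 and Pdgfra at 15.9, 29.4 and 29.6, Dcn was at 25.4, 10.5 and 45.3, and 4 of 18 in all were under 36 throughout. The summed intensity of the 18 markers was 10667, 9026 and 17321. The 14 mural and smooth muscle genes share no member with these lists. All were lower than the mean and 13 were lowest at passage 14; 4 lay below both, with a median of -0.95 (3 and -0.62 with values raised). Tagln, the actin-binding protein transgelin, was at 4535, 619 and 1756 and the myosin light chain Myl9 at 1006, 347 and 1072. Pdgfrb, the pericyte receptor, was at 77.9, 66 and 206, and the pericyte genes Rgs5 and Cspg4 were under 36 at 11.3, 9.55 and 13.96 and at 27.4, 27.6 and 20.6. The summed intensity of the 20 genes was 30520, 19048 and 33117. The part of such cells in the matrix result was not tested.

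**Figure D4:**
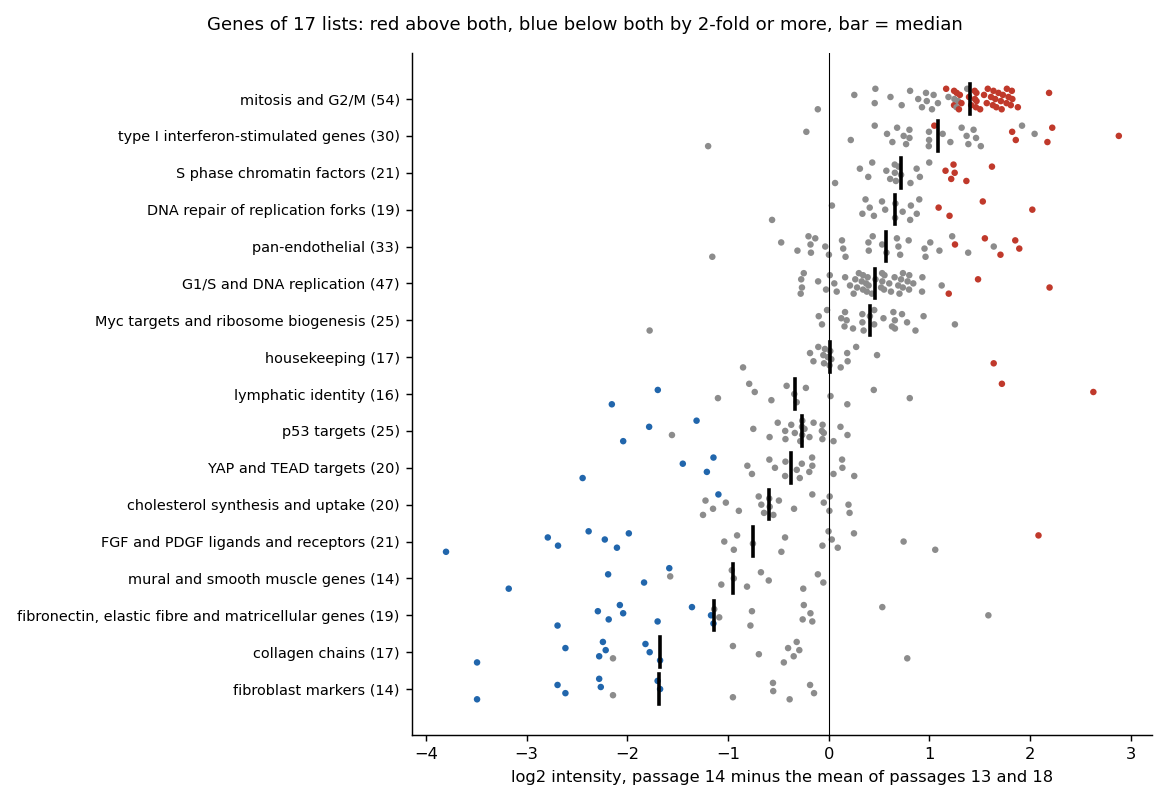
Log2 intensity at passage 14 minus the mean of passages 13 and 18 for every kept gene of 17 lists (number of genes in brackets). Red points lie at least 2-fold above both other arrays, blue points at least 2-fold below both, and black bars are list medians, which run from 1.41 for mitosis to -1.69 for fibroblast markers.

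Of 16 mesenchymal transition genes 13 were lower and 2 lay below both, Cdh11 and Fn1. The median was -0.61, with -0.22 against passage 13 and -0.94 against passage 18. Snai2 was at 1009, 533 and 2438 and N-cadherin, Cdh2, at 998, 536 and 2066, each within 2-fold of passage 13, while Twist1 was at 154, 222 and 416 and Prrx1 at 136, 344 and 457, both lowest at passage 13. The TGF-beta list, of the pathway that drives collagen synthesis, had a median of -0.15. The inhibitor Smad7 and the ligand Tgfb3 lay below both at 141, 69.2 and 257 and at 153, 73.4 and 229, and Ltbp2, a matrix-binding protein, above at 28.2, 63.5 and 13.9 (not with values raised). In the BMP list Smad6 was below at 105, 41.8 and 154, Grem1, a secreted BMP antagonist, above at 149, 345 and 164, and the median was -0.09.

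Of 20 genes of the YAP and TEAD pathway, whose targets respond to tension and spreading, 4 lay below both and the median was -0.37. Beside targets, this list holds the pathway's own factors Yap1, Wwtr1, Tead1, Tead2 and Tead4. Ccn2, connective tissue growth factor, was at 5898, 2718 and 6113, the TEAD cofactor Vgll3 at 1694, 315 and 1732 and the GTPase regulator Dlc1 at 468, 229.7 and 602. Ankrd1, another such target, was lowest at passage 13 at 299.8, 439.8 and 807. The FGF and PDGF list had 7 of 21 below both (4 with values raised) and a median of -0.75. Those below included the discoidin collagen receptors Ddr1 at 542, 210.3 and 1503 and Ddr2, the epidermal growth factor family ligand Ereg, and Fgf18 at 99.5, 21.6 and 224, with Pdgfb the single one above. Of 21 Wnt genes 3 lay below both (2 with values raised), among them the R-spondin Rspo3 at 57.2, 15.8 and 248 and the secreted Dkk3 at 168, 47.7 and 519, with a median of -0.56 that was -0.20 against passage 13. The insulin-like growth factor and imprinted list had a median of -0.18 with Igfbp7 below, while Igfbp4 was higher at 1627, 2688 and 408.

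Patterning factors gave single large differences within level lists. Foxf1 was the single forkhead gene of 13 above both and Foxc2 the single one below, and the list median was -0.27. Foxc1, its close relative, was at 72.1, 52.2 and 307, lowest at passage 14. Among 18 Hox genes 3 lay above both, Hoxd13, Hoxa9 at 10.8, 252 and 85.6 and Hoxa11 at 17.96, 59.6 and 22.01 (lost with values raised), and the median was 0.11. Hoxa10 (50.7, 181 and 244) was far lower at passage 13 than at passages 14 and 18, so for this gene passage 13 stood apart. Hoxa9 was under 36 at passage 13 only, with passage 14 the highest array. Of 14 immediate early genes Fos was below both at 179, 68.5 and 291, and the median was -0.28.

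Inflammatory and immune lists held calls in both directions, in shares above the 2.41% and 3.41% of all genes for some of them. The chemokine and cytokine list had 3 of 18 above both, Cxcr4, the monocyte chemokine Ccl2 at 1090, 2268 and 406 and the interferon-induced Cxcl10 at 201, 427 and 105, and Il7, a lymphocyte survival factor, below at 1083, 315 and 1242. Among 16 Toll-like receptor and NF-kB genes 0 were called and the median was 0.21. The TNF receptor list had 1 above, Tnfrsf23 at 522, 1087 and 319.5, and 2 below, Fas and Tnfrsf18 at 146, 27.5 and 199, of 14. In the complement and coagulation list 4 of 15 lay below both, among them the plasminogen activator Plat at 145, 62.5 and 447, tissue factor, F3, at 154, 76.8 and 284 and the complement regulator Cd55 at 1327, 464 and 1311. The prostaglandin and sphingosine phosphate list had 12 of 16 lower, a median of -0.76 and the prostaglandin receptor Ptger4 below both at 181, 52.3 and 174.

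These metabolic lists gave 1 call each, and the cholesterol list shifted the most of them. Cholesterol synthesis genes, which Srebf2 controls together, were lower in 16 of 20, with 1 below both and a median of -0.59 (-0.50 against passage 13 and -0.75 against passage 18). The one call was Fdps, which makes farnesyl diphosphate, at 219, 103 and 221, and Hmgcs1, at the head of the pathway, was at 1038, 702 and 1954. Respiratory chain genes were higher in 23 of 27 with a median of 0.19, and glycolysis and hypoxia genes had a median of 0.27. One call above both came from each, Cox7c at 24.2, 63.2 and 26.3 and the glucose transporter Slc2a3 at 10.4, 39.9 and 7.81, with the other arrays under 36 and both calls lost with values raised.

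Stress and clearance lists were near level. The endoplasmic reticulum stress list gave 0 calls among 20 genes with a median of 0.04, and the lysosome and autophagy list 0 among 20 with -0.06. Among 18 Nrf2 genes the glutathione transferase Gstm2 was below both at 1887, 509.6 and 1421 and the median was 0.20. The small heat shock protein Cryab was below both at 5005, 981 and 5535 in a heat shock list whose median was 0.03. Housekeeping genes had a median of 0.01 over 17 genes. The transferrin receptor Tfrc, which dividing cells use for iron, was their single call, above both at 664, 1945 and 587. Without a call, Polr2a differed by -0.85 and Gusb by 0.48.

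Markers of other cell types gave single calls. Of 5 leukocyte markers kept, Csf1r lay below both at 56.2, 11.4 and 32.3 (not with values raised), and Cd68 was highest at passage 14 at 127, 244 and 58.1. All 8 epithelial markers kept were lower than the mean of the others, 6 of them lowest at passage 14, with Dsp below both at 47.1, 14.5 and 64.3 (not with values raised) and Krt19 at 974, 387 and 644. Of the nerve, fat and muscle list 3 of 12 were kept: the lipase Lpl at 40.6, 145 and 26.2, above both, the tubulin Tubb3 at 252, 66.7 and 381, below both, and S100b at 27.7, 27.8 and 50.1. The summed intensities of these 3 lists were 705, 631 and 427, then 1712, 971 and 1566, then 463, 386 and 592.

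Differences were also arranged along 1 chromosome. The 9715 genes that were above 36 on all arrays and placed by RefSeq were read in gene order, as running medians over 25 neighbours. The distal part of chromosome 4, 202 genes from Rbbp4 to the last gene Samd11, was lower at passage 14. There the median log2 difference was -0.49, which is 1.4-fold, and 179 of the genes (88.6%) were lower, against 50.4% outside the stretch. It was -0.50 against passage 13 and -0.48 against passage 18, while passages 18 and 13 differed by -0.02. In 165 of the 202 genes passage 14 was the lowest array, and 16 had it highest. The other 388 genes of the chromosome had a median of -0.10.

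The shift was broad and small per gene. In the stretch 14 of the 202 genes lay at least 2-fold below both arrays, against 215 of all 9715 genes placed. Above both lay 0, against 160 of the 9732 genes over 36 on all arrays. Second probe sets were lower for 98 of 111 genes, with a median of -0.47. Of the 9235 runs, 190 had a median of -0.4 or less and 168 of these were on chromosome 4. The lowest was -0.65 there and -0.52 elsewhere. The bound of 0.4 was set after the running medians had been seen. All 14 genes of the lists that lie in the stretch were lower, as were 88.6% of the stretch's genes. Mmp23, Hspg2 and Pdpn were among them, together with the Id factor Id3 at 1070, 708 and 1269 and the SMAD corepressor Ski at 542, 353 and 928.

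Other stretches were shorter. On chromosome 5, 40 genes from Eif2ak1 to N4bp2l2 had a median of 0.42, with 29 highest at passage 14, and second probe sets gave 0.47. On chromosome 3, 28 genes from Zfhx4 to Gyg had a median of -0.47, and on chromosome 8, 26 genes from Plat to Rnf170 had -0.43. Both differed more from passage 18 than from passage 13, at -0.73 and -0.55 against -0.27 and -0.25. A stretch of 48 genes on chromosome 10 from Fuca2 to Tspyl1 had a median of -0.37, but -0.02 by second probe sets. The copy number of these regions was not measured, so its part in these values was not tested.

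**Figure D5:**
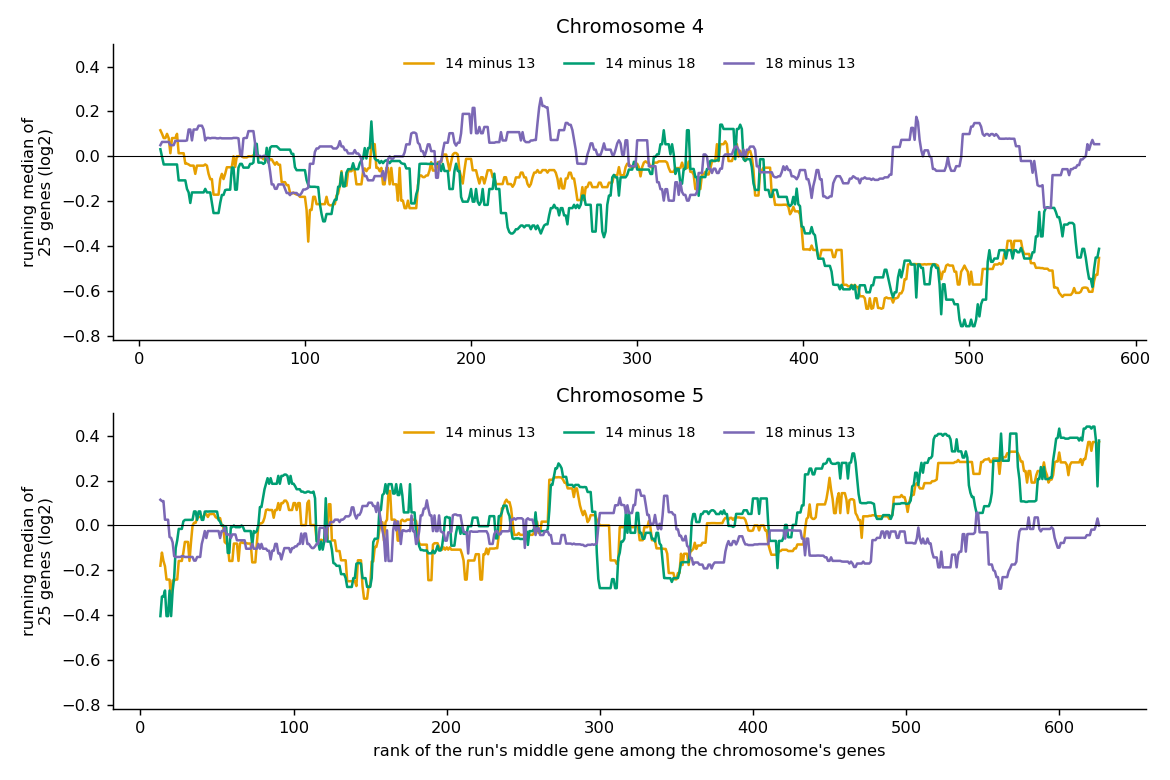
Running median over 25 neighbouring genes of the log2 difference between arrays, against gene order on chromosomes 4 and 5. On chromosome 4 both passage 14 differences lie near -0.5 over the last 202 of 590 genes while passages 18 and 13 stay near 0, and on chromosome 5 both lie above 0 at the far end.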

How the data were processed

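Signal intensities of 3 arrays were used, 1 culture each of passages 13, 14 and 18. The authors deposited 1 linear intensity per probe set and array. The submitters' processing notes name MAS5 without a role, and the scaling is not given in the sources used here. Detection calls were not used here. The array medians and 95th percentiles (1363 to 1367) were already alike, so the deposited intensity values were taken to log2 without further normalization. Of 45101 probe sets, 34958 had 1 gene, 932 several and 9211 none in the platform annotation, and the last 2 kinds were left unnamed. Symbols were updated through Entrez identifiers to RefSeq genes of GRCm38.p6 (34754 matched), which also gave gene order and promoter windows.

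The 2-fold differences, list counts and medians, second probe sets, running medians of 25 genes and promoter letters were computed with Python 3.11.15, pandas 2.3.3 and numpy 2.4.6, and the scripts' contrast and calls were checked on simulated data. The members and the 58 gene lists (1289 genes, 1208 matched and 968 kept) were chosen with earlier results of these data known. Named genes were, beside Cxcr4, Prom1, Foxf1 and Lox, the 15 with the largest difference in each direction, 8 in each direction with a value under 36, up to 8 in each direction and the 3 least different of each list, any member of a cell type list, and genes at the ends of a stretch. Alternatives tried were the median over all probe sets of a gene, dropping those open to cross-hybridisation, 2 other filters, adding 16 before log2, raising low values to 36, quantile normalization, median centring, the mean of the intensities of passages 13 and 18, a 3-fold bound and leaving out passage 13 or 18. No test was made, since 1 array stands on one side.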

Additional observations from a re-analysis of the deposited data

How the results depend on the processing

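The counts of genes followed the filter and the fold, as both are built to do. With all 3 arrays above 36, 283 genes were higher and 410 lower than the mean of the other cultures, and 160 lay above both and 215 below both. A 3-fold bound gave 165 and 248, and 72 and 123. Adding 16 before log2 gave 239 below both. With passage 13 or 18 left out, the counts against the remaining array ranged from 326 to 709 for genes higher or above, and from 514 to 964 for genes lower or below. The share of genes above among those outside both arrays was 41.4%, and 38.8% to 46.7% under the alternatives.

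The collagen median of -1.67 became -1.10 with 16 added and -0.95 with values raised to 36, and ranged from -2.04 to -0.83 when passage 13 or 18 was left out. On the same terms the pan-endothelial median ranged from 0.18 to 0.94 and that of G1/S from 0.49 to 0.57. The medians of mitosis, interferon-stimulated genes and the chromosome 4 stretch kept their direction under each alternative run. With passage 18 or 13 left out they were 1.24 and 1.60, 0.68 and 1.54, and -0.50 and -0.48. The spread used below was a list's absolute median difference between passages 18 and 13 over the square root of 2, or 0.1 if larger. It is no replicate spread, and where those passages differ much, leaving 1 out can hardly exceed it. A change of sign was counted only for medians of at least 0.3 in size. Of 638 list medians under an alternative, 576 stayed within the spread, 60 moved and 2 changed sign: nerve, fat and muscle markers (0.0016 with passage 18 left out, -0.85 with passage 13 left out) and the adrenomedullin, endothelin, apelin and natriuretic list (-0.12 and 0.32). The cause was not tested. Of 488 values of the 46 leading genes, 0 changed sign. These genes were picked for large differences from both other arrays, which largely fixes that outcome in advance. No paired analysis was possible because each passage has 1 culture.

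Signal limits the rest: a value under 36 is only an upper limit, and 1 culture per passage leaves the spread among cultures unknown.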

Other observations

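Probe sets that the annotation gives no gene or several genes were outside every comparison above. Of 2072 of them above 36 on at least 1 array, 47 lay at least 2-fold above both passages 13 and 18 (2.27%) and 52 below both (2.51%).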
